A study of Mus musculus with 6 samples.

Results

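The transcription factors that direct granulocyte and monocyte fate, C/EBPα, C/EBPβ, C/EBPδ, C/EBPε, PU.1 and GFI1, were compared in mouse acute myeloid leukemia (AML) cells with and without *Phf6*, which encodes a plant homeodomain finger protein of the nucleus. Their genes, *Cebpa*, *Cebpb*, *Cebpd*, *Cebpe*, *Spi1* and *Gfi1*, were taken by symbol from the table of read counts and make up 6 of its 54532 genes. All 6 had enough counts to be tested, among 14169 genes in all. Both groups carried RUNX1-ETO9a (RE9a), a truncated leukemia fusion protein, delivered with GFP by retrovirus into fetal liver cells of male donors, and were passed serially through male recipient mice. *WT Phf6,RE9a* cells were *Phf6 fl/y*, with an intact floxed allele, and *VC Phf6,RE9a* cells were *Vav1-Cre;Phf6 fl/y*, in which the *Vav1* promoter drives Cre in blood cells. GFP+ leukemia cells were sorted from bone marrow and sequenced in 3 libraries per group, replicates 1, 2 and 3 of *WT Phf6,RE9a* and replicates 11, 12 and 13 of *VC Phf6,RE9a*. The labels give neither the passage or the age of the mice nor whether the libraries of a group came from different leukemias, so p-values measure the spread between these libraries, which may be technical. Transcripts of GFP and of the fusion were not analysed here.

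C/EBP proteins are basic leucine zipper factors that bind DNA as dimers. C/EBPα opens the granulocyte and monocyte program in progenitors, C/EBPε drives the late steps in which secondary granules are made, and C/EBPβ and C/EBPδ act in emergency granulopoiesis and in inflammation. PU.1, encoded by *Spi1*, is an ETS factor needed for monocytes, granulocytes and B cells, and it works with C/EBP proteins at many myeloid genes. GFI1 is a zinc finger repressor that recruits histone demethylase and deacetylase complexes, restrains monocyte genes and is needed for neutrophils. The fusion of RUNX1 with ETO is known to interfere with C/EBPα and PU.1 in human AML.

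In *VC Phf6,RE9a* cells, 3 of the 6 genes rose, 1 fell and 2 did not pass the threshold. *Cebpe* was 9.58-fold higher, *Cebpd* 4.03-fold higher and *Cebpa* 3.84-fold higher, while *Gfi1* was 11.2-fold lower. *Spi1*, the most abundant of the 6 per length, and *Cebpb* did not pass. A change was called where edgeR's quasi-likelihood test gave an adjusted p under 0.05 over all genes tested. By that rule 21.5% of all genes tested were higher and 22.7% were lower in *VC Phf6,RE9a* cells, 44.2% in either direction, so a call by itself sets no gene apart here. The 2 groups stood apart, with no overlap between their libraries, for 4 of the 6 genes, 3 of them higher and 1 lower, against 57.3% of all genes tested (28.9% higher and 28.4% lower), a share near the background from which nothing is read. The sizes of the changes were in the upper part of the range, since 96.4% of tested genes changed by less than *Gfi1*, 95.8% by less than *Cebpe*, 90.0% by less than *Cebpd* and 89.4% by less than *Cebpa*. Only 27.4% changed by less than *Spi1* and 10.1% by less than *Cebpb*.

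**Figure D1:**
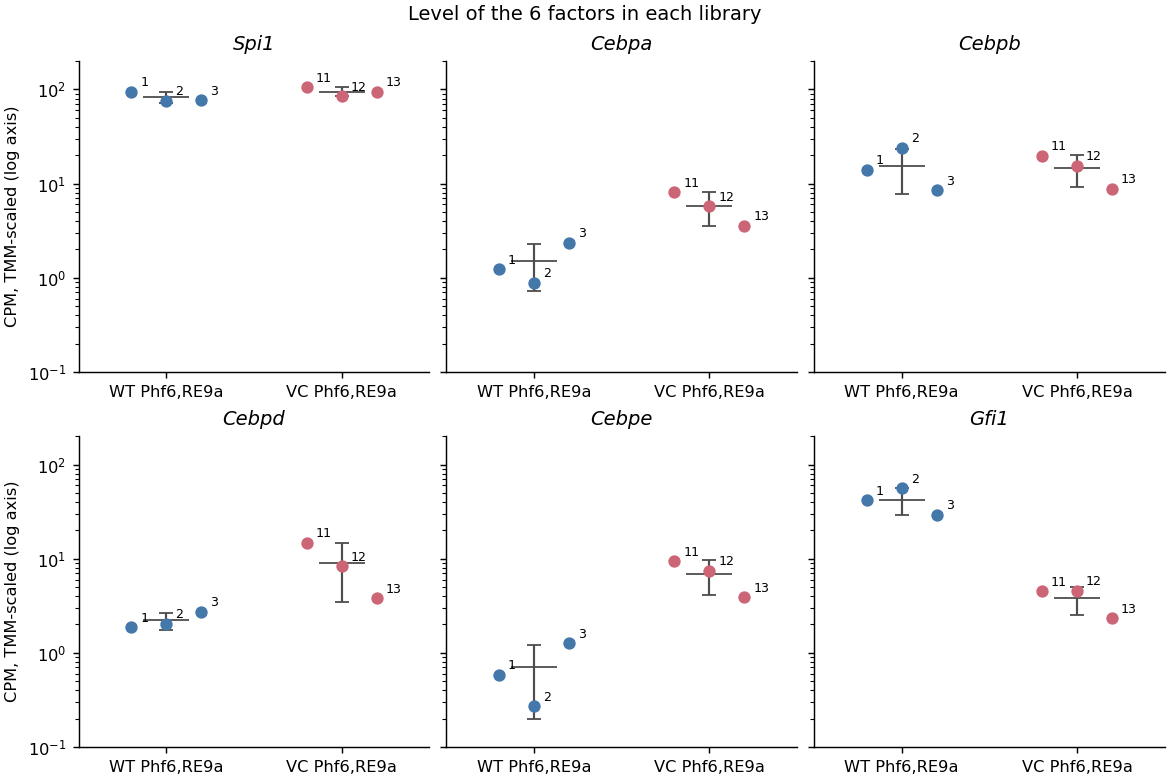
Level of each of the 6 genes in every library, in CPM (counts scaled to the library size after TMM) on a log axis shared by all panels. Blue points are *WT Phf6,RE9a* replicates 1, 2 and 3, red points are *VC Phf6,RE9a* replicates 11, 12 and 13, the wide bar is the group mean and the error bar is its SD (n = 3). Red and blue points do not overlap for *Cebpa*, *Cebpd*, *Cebpe* and *Gfi1*, and they overlap for *Spi1* and *Cebpb*.

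Depth was even, with total counts per library from 15675358 to 16817994. *Phf6*, the deleted gene, had 1044, 827 and 1142 counts in *WT Phf6,RE9a* and 388, 314 and 331 counts in *VC Phf6,RE9a* libraries, a log2 fold change of -1.66 (standard error, SE, 0.13, and adjusted p = 9.32e-05 in edgeR). Which exons of *Phf6* the reads left in *VC Phf6,RE9a* libraries cover cannot be told from gene counts. Lists of 6 markers for each of 7 cell types showed that the libraries differ in cell makeup or in the state of the leukemia cells, which in bulk RNA cannot be told apart: fewer cells of a type and less RNA per cell give the same reads. All 6 neutrophil markers rose, with a summed level of 13.4 to 39.6 FPKM in *WT Phf6,RE9a* and 65.2 to 302 FPKM in *VC Phf6,RE9a* libraries. FPKM is the fragment count scaled by gene length and by library size. All 6 erythroid markers rose, from a summed 467 to 692 FPKM up to 2533 to 2916 FPKM. Of 6 mast cell and basophil markers 5 fell. All 6 summed to 6497 to 10474 FPKM in *WT Phf6,RE9a* and 501 to 725 FPKM in *VC Phf6,RE9a* libraries. The marker that did not pass, *Ms4a2*, was named after its values were seen. It alone had 390 to 453 FPKM in *WT Phf6,RE9a* and 330 to 462 FPKM in *VC Phf6,RE9a* libraries. Of 6 monocyte markers, with log2 fold changes from -5.78 to 2.28, 2 rose and 2 fell, and 1 of 6 macrophage markers rose. Over all genes tested 21.5% rose and 22.7% fell. The monocyte and macrophage counts are near those shares, and nothing is read from them. B cell markers were low in both groups, at 0.367 to 0.739 FPKM and 4.16 to 10.5 FPKM, and all 4 that could be tested rose. T cell markers summed to 0.365 to 0.513 FPKM and 2.05 to 2.83 FPKM, and only *Lck*, a kinase that other blood cells also use, could be tested and rose.

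The genes lie on 5 chromosomes of GRCm38. *Cebpa* (ENSMUSG00000034957) lies on the + strand of chromosome 7 from 35119293 to 35121928. *Cebpb* (ENSMUSG00000056501) lies on the + strand of chromosome 2 from 167688915 to 167690418, and *Spi1* (ENSMUSG00000002111) on the same strand and chromosome from 91082390 to 91115756. *Cebpd* (ENSMUSG00000071637) lies on the + strand of chromosome 16 from 15887286 to 15891031, and *Cebpe* (ENSMUSG00000052435) on the - strand of chromosome 14 from 54710360 to 54712174. *Gfi1* (ENSMUSG00000029275) lies on the - strand of chromosome 5 from 107716657 to 107726036. The longest coding transcripts of *Cebpa*, *Cebpb* and *Cebpd* in GENCODE M21 have 1 exon each. That of *Cebpe* has 2 exons, that of *Spi1* has 5 and that of *Gfi1* has 6.

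RefSeq start sites on GRCm38.p6 were matched for 3 of the 6 genes, *Cebpa*, *Cebpb* and *Gfi1*, and the bases before them are shown because these genes rose, did not pass and fell. *Cebpd*, *Cebpe* and *Spi1* are named only. Each window was searched on both strands for TTGCNNAA, a C/EBP motif, for GAGGAA, the PU box that PU.1 binds, and for AAATCA, the core that GFI1 binds. Capitals mark a match to the C/EBP motif. The windows shown are chr7:35119043-35119292 on the + strand before *Cebpa*, chr2:167688665-167688914 on the + strand before *Cebpb*, and chr5:107725806-107725954 on the - strand before the upstream start site of *Gfi1*, of which the 149 bases nearest to the start are shown.
Cebpa: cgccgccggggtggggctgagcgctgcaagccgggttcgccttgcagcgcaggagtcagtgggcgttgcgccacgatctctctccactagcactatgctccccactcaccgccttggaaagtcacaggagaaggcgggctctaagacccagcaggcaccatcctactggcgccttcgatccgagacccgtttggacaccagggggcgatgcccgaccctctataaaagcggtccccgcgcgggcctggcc
Cebpb: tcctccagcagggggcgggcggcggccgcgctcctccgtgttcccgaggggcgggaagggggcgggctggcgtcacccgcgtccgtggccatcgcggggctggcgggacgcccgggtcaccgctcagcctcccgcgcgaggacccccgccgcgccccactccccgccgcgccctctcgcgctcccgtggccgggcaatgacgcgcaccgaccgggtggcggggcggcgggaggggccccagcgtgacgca
Gfi1: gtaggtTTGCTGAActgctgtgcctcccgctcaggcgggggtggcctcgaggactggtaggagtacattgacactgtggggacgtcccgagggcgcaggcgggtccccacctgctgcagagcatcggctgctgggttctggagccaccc
The *Gfi1* window holds 1 match to the C/EBP motif, from -143 to -136 counted from the start site at 107725805. The 149 bases shown, with this match, lie inside the annotated *Gfi1* gene, which runs up to 107726036. Bases farther from the start were left out, from the nearest annotated untranslated region onward. Of 32851 RefSeq promoter windows of 300 bases, 10.8% hold that motif, 28.3% hold the PU box and 14.0% hold the GFI1 core. A second *Gfi1* window, at the start site 107724343, had no match to any of the 3 motifs, and neither had those of *Cebpa* and *Cebpb*. A match is a run of letters and not a binding site, and its absence from a window says nothing about the factor. In the 250 bases before the start, GC content was 81.6% at *Cebpb*, 66.4% at *Cebpa* and 59.2% at the upstream *Gfi1* start, with 41, 22 and 13 CG dinucleotides.

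*Cebpa* encodes the factor that progenitors need to become granulocytes and monocytes. It was read 19, 13 and 39 times in *WT Phf6,RE9a* and 137, 98 and 60 times in *VC Phf6,RE9a* libraries. The lowest *VC Phf6,RE9a* library, replicate 13, lay above the highest *WT Phf6,RE9a* library, replicate 3. The level rose from 1.49 ± 0.772 to 5.79 ± 2.26 CPM (SD, n = 3), or by 1.94 on the log2 scale (SE 0.45, adjusted p = 0.0103 in edgeR). An antisense gene that overlaps its start by 313 bases, *Gm45091*, had 0 counts in all 6 libraries.

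*Cebpe*, the C/EBP gene of late granulocytes, was the least read of the 6 genes in *WT Phf6,RE9a* cells. It was counted 9, 4 and 21 times in *WT Phf6,RE9a* and 160, 128 and 66 times in *VC Phf6,RE9a* libraries. The groups were well apart, with *WT Phf6,RE9a* replicate 3 the nearest to the *VC Phf6,RE9a* libraries and *VC Phf6,RE9a* replicate 13 the nearest to the *WT Phf6,RE9a* libraries. The level rose from 0.709 ± 0.511 to 6.94 ± 2.80 CPM (SD, n = 3), or by 3.26 on the log2 scale (SE 0.55, adjusted p = 0.00263 in edgeR). Without *WT Phf6,RE9a* replicate 3 the log2 fold change was 3.98, and the call stayed.

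*Cebpd*, an inducible C/EBP gene of the acute-phase response, had 29, 30 and 45 counts in *WT Phf6,RE9a* and 251, 142 and 64 counts in *VC Phf6,RE9a* libraries. The *WT Phf6,RE9a* libraries were close together, while the *VC Phf6,RE9a* libraries spread 3.90-fold from replicate 13 up to replicate 11. The level rose from 2.21 ± 0.448 to 8.97 ± 5.54 CPM (SD, n = 3), or by 2.01 on the log2 scale (SE 0.48, adjusted p = 0.0119 in edgeR). *Spidr*, a DNA repair gene on the other strand, overlaps *Cebpd* by 1808 bases. Its log2 fold change was -0.15 (SE 0.15, adjusted p = 0.436 in edgeR), and the strand used in counting is not given in the sources used here.

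*Cebpb*, the C/EBP gene of macrophages and of emergency granulopoiesis, had 217, 354 and 140 counts in *WT Phf6,RE9a* and 336, 267 and 149 counts in *VC Phf6,RE9a* libraries. Both groups ran over nearly the same range, and replicate 3 of *WT Phf6,RE9a* and replicate 13 of *VC Phf6,RE9a* were lowest. The level was 15.5 ± 7.87 and 14.7 ± 5.54 CPM (SD, n = 3), apart by -0.07 on the log2 scale (SE 0.41, adjusted p = 0.905 in edgeR). The 95% interval of the difference ran from 0.492-fold to 1.84-fold, so changes within that range remain compatible with these 3 libraries per group. The sign rested on single libraries, with a log2 fold change of 0.38 when *WT Phf6,RE9a* replicate 2 was left out and of 0.19 when *VC Phf6,RE9a* replicate 13 was. *Tmem189* overlaps *Cebpb* by 908 bases on the other strand and had a log2 fold change of -0.26 (SE 0.12, adjusted p = 0.109 in edgeR).

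*Spi1*, the PU.1 gene, had 1454, 1122 and 1267 counts in *WT Phf6,RE9a* and 1784, 1459 and 1589 counts in *VC Phf6,RE9a* libraries. The groups overlapped, and within each group the highest library was at most 1.24-fold above the lowest. The level was 82.4 ± 10.4 and 94.9 ± 10.2 CPM (SD, n = 3), apart by 0.20 on the log2 scale (SE 0.12, adjusted p = 0.207 in edgeR). The 95% interval ran from 0.949-fold to 1.40-fold, a narrower range than for *Cebpb*.

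*Gfi1*, the repressor gene, had 644, 827 and 485 counts in *WT Phf6,RE9a* and 76, 78 and 39 counts in *VC Phf6,RE9a* libraries. The highest *VC Phf6,RE9a* library lay far under the lowest *WT Phf6,RE9a* library. The level fell from 42.4 ± 13.4 to 3.78 ± 1.27 CPM (SD, n = 3), a difference of -3.48 on the log2 scale (SE 0.33, adjusted p = 0.000194 in edgeR). *A430072P03Rik*, a noncoding transcript that shares 880 bases with the 5′ end of *Gfi1* on the other strand, had 36, 30 and 30 counts in *WT Phf6,RE9a* and 4, 4 and 6 counts in *VC Phf6,RE9a* libraries. Its log2 fold change was -2.87 (SE 0.35, adjusted p = 0.000633 in edgeR). Without a stated strand, reads of this transcript and of *Gfi1* cannot be told apart where they overlap. The part of this transcript in the *Gfi1* counts was not tested. The mast cell and basophil markers, whose summed level fell in the same libraries, are given above, and their part in the *Gfi1* result was not tested.

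The neutrophil markers rose in the libraries in which *Cebpa*, *Cebpd* and *Cebpe* rose. Per 1000 FPKM of the 6 neutrophil markers, *Cebpa* had 22.4 to 29.7 FPKM in *WT Phf6,RE9a* and 10.02 to 20.4 FPKM in *VC Phf6,RE9a* libraries, *Cebpd* had 18.2 to 40.3 FPKM and 11.7 to 15.3 FPKM, and *Cebpe* had 16.2 to 29.9 FPKM and 24.8 to 47.6 FPKM. The groups overlapped for *Cebpe*, and the *VC Phf6,RE9a* libraries were lower for *Cebpa* and *Cebpd*. The part of the neutrophil markers in these 3 results was not tested.

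The calls of the 4 genes that changed were kept in every alternative in which the gene was tested. With at least 10 counts required in every library *Cebpe* was not tested. On log2(FPKM + 1), a scale that understates changes of low genes, limma gave 1.00 for *Cebpa*, 0.99 for *Cebpd*, 2.03 for *Cebpe* and -2.69 for *Gfi1*.

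Levels of different genes were compared per length, in FPKM. In *WT Phf6,RE9a* cells *Spi1* was highest at 30.4 ± 4.01 FPKM (SD, n = 3). *Gfi1* at 13.2 ± 4.18 FPKM and *Cebpb* at 10.3 ± 5.19 FPKM followed and overlapped each other. *Cebpd* at 0.587 ± 0.116 FPKM, *Cebpe* at 0.567 ± 0.407 FPKM and *Cebpa* at 0.562 ± 0.289 FPKM came last, with overlapping ranges. These levels leave *Cebpa*, *Cebpd* and *Cebpe* under every library's value for *Cebpb*. In *VC Phf6,RE9a* cells *Spi1* stayed highest at 34.8 ± 3.64 FPKM. *Cebpb* followed at 9.69 ± 3.66 FPKM, then *Cebpe* at 5.53 ± 2.24 FPKM, *Cebpd* at 2.36 ± 1.46 FPKM, *Cebpa* at 2.17 ± 0.851 FPKM and *Gfi1* at 1.17 ± 0.398 FPKM. Each neighbour below *Spi1* overlapped the next, so neighbours in this order did not differ beyond their spread. Over longer steps there was no overlap, since every *VC Phf6,RE9a* library had more *Cebpb* than the highest value of *Cebpd*, *Cebpa* or *Gfi1*, and more *Cebpe* than the highest value of *Cebpa* or *Gfi1*. *Gfi1*, ranked second in *WT Phf6,RE9a* cells, was last in *VC Phf6,RE9a* cells.

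The 4 C/EBP genes differed in their share of the family's summed FPKM. *Cebpb* made up 86.7%, 93.6% and 68.0% in *WT Phf6,RE9a* and 47.4%, 49.9% and 51.6% in *VC Phf6,RE9a* libraries. Its mean share was 82.8% ± 13.2 and 49.6% ± 2.10 (SD, n = 3), and no *VC Phf6,RE9a* library reached the lowest *WT Phf6,RE9a* library, although the level of *Cebpb* itself overlapped. *Cebpe* held 4.36%, 1.28% and 12.4% in *WT Phf6,RE9a* and 27.4%, 29.0% and 27.7% in *VC Phf6,RE9a* libraries. The *VC Phf6,RE9a* libraries were within 2 percentage points of each other for this share, while their summed level differed widely.

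The share of *Cebpa* was 5.70% ± 4.58 in *WT Phf6,RE9a* cells against 11.1% ± 0.703 in *VC Phf6,RE9a* cells (SD, n = 3), with *WT Phf6,RE9a* replicate 3 at 10.8% inside the *VC Phf6,RE9a* range. *Cebpd* held 5.54% ± 2.90 and 11.3% ± 2.71 (SD, n = 3). The summed level of the family was 11.98 ± 4.48 FPKM in *WT Phf6,RE9a* and 19.7 ± 8.16 FPKM in *VC Phf6,RE9a* cells, and the groups overlapped. These shares follow from the levels above and were not tested.

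**Figure D2:**
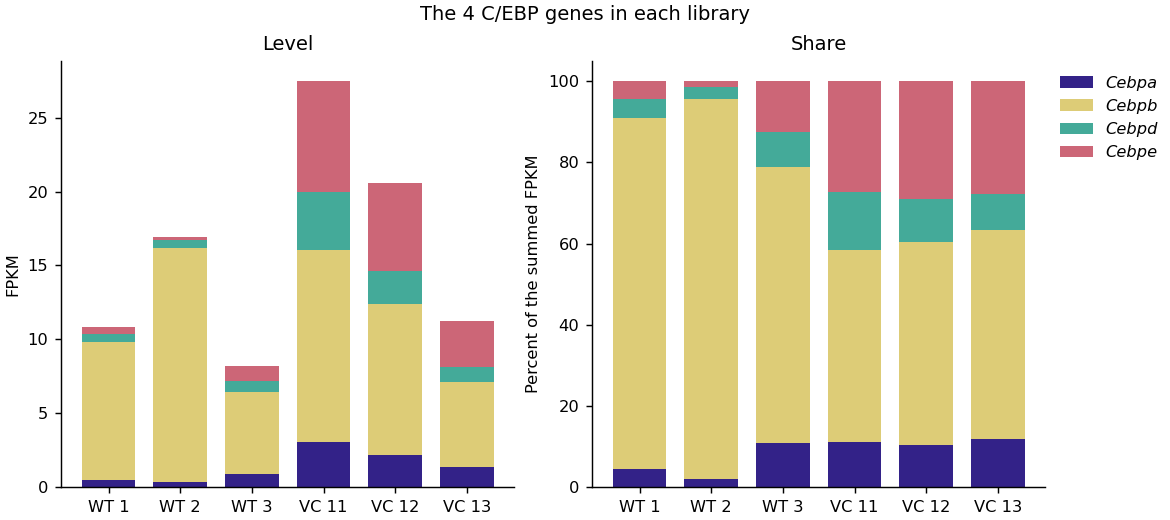
Stacked bars of *Cebpa*, *Cebpb*, *Cebpd* and *Cebpe* in each library, in FPKM on the left and as percent of their summed FPKM on the right. *Cebpb* takes 68.0% to 93.6% of each *WT Phf6,RE9a* bar and 47.4% to 51.6% of each *VC Phf6,RE9a* bar, and *Cebpe* takes 27.4% to 29.0% of each *VC Phf6,RE9a* bar.

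Ratios within a library do not depend on how libraries are scaled. The log2 ratio of *Spi1* to *Cebpa* FPKM was 6.23, 6.40 and 4.99 in *WT Phf6,RE9a* and 3.67, 3.86 and 4.70 in *VC Phf6,RE9a* libraries. Every *VC Phf6,RE9a* library was under every *WT Phf6,RE9a* library, with a difference of -1.80 between means of 4.08 ± 0.54 and 5.87 ± 0.77 (SD, n = 3). The log2 ratio of *Cebpe* to *Cebpa*, the late to the early C/EBP gene, was 0.01, -0.61 and 0.19 in *WT Phf6,RE9a* and 1.31, 1.47 and 1.22 in *VC Phf6,RE9a* libraries, a difference of 1.47. The groups did not overlap. *Gfi1b*, the paralog of *Gfi1* that serves erythroid cells and megakaryocytes, was already above *Gfi1* in *WT Phf6,RE9a* cells, with a log2 ratio of *Gfi1* to *Gfi1b* of -1.57 ± 0.73 against -5.94 ± 0.50 in *VC Phf6,RE9a* cells (SD, n = 3). For each of the 3 ratios the exact permutation test gave a two-sided p of 0.1 (adjusted 0.1 over the 3 ratios), which is the smallest p that 3 against 3 libraries allow, so none could pass 0.05.

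Close relatives of the 6 factors were compared too. Of 5 relatives, 3 rose and 1 fell, against 21.5% and 22.7% of all genes tested. Their median log2 fold change was 0.85 against 0.01 over all genes tested. *Spib*, an ETS gene close to *Spi1* that B cells and plasmacytoid dendritic cells use, had 3, 2 and 5 counts in *WT Phf6,RE9a* and 140, 138 and 56 counts in *VC Phf6,RE9a* libraries. It was near the limit of counting in *WT Phf6,RE9a* cells and was read in every *VC Phf6,RE9a* library, with a log2 fold change of 4.89 (SE 0.52, adjusted p = 0.000333 in edgeR). The B cell markers rose in the same libraries, and their part in the *Spib* result was not tested. *Gfi1b* rose by 0.85 on the log2 scale (SE 0.14, adjusted p = 0.00214 in edgeR), opposite to *Gfi1*, as the erythroid markers rose, whose part was not tested. *Cebpg*, a C/EBP protein without an activation domain of its own, rose by 0.43 on the log2 scale (SE 0.10, adjusted p = 0.00885 in edgeR). *Ddit3*, which encodes the stress-induced C/EBP relative CHOP, fell by 0.85 on the log2 scale (SE 0.23, adjusted p = 0.0204 in edgeR). The number of relatives that fell was 0 without *WT Phf6,RE9a* replicate 1, *VC Phf6,RE9a* replicate 12 or *VC Phf6,RE9a* replicate 13. *Spic*, the macrophage relative of *Spi1*, had a log2 fold change of 1.43 and an adjusted p of 0.0551.

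Partners of GFI1, the ubiquitin ligase COP1 and the Tribbles genes were counted as 1 list of 12 genes. Of these 4 rose and 2 fell, with a median of 0.04, while 44.2% of all genes tested were called in either direction. The count is near that share, and nothing is read from it. Of the corepressor genes, 2 fell and 1 rose, each by less than 2-fold. *Kdm1a*, the histone demethylase LSD1, fell by 0.25 on the log2 scale (adjusted p = 0.0281 in edgeR), *Ehmt2*, the histone methyltransferase G9a, fell by 0.65 (adjusted p = 0.00141), and *Hdac1* rose by 0.29 (adjusted p = 0.0203). *Hdac2*, *Rcor1*, *Rcor2*, *Rcor3* and *Zbtb17*, which encodes the GFI1 partner MIZ1, did not pass. All 3 Tribbles genes rose. The pseudokinases TRIB1 and TRIB2 are known to bring COP1 to C/EBPα for its destruction, which is not known of TRIB3. *Trib1* had 38, 40 and 115 counts in *WT Phf6,RE9a* and 532, 333 and 121 counts in *VC Phf6,RE9a* libraries, so that *VC Phf6,RE9a* replicate 13 lay just above *WT Phf6,RE9a* replicate 3. Its log2 fold change was 2.25 (SE 0.59, adjusted p = 0.0175 in edgeR). *Trib3* rose by 0.98 on the log2 scale (adjusted p = 0.00803), and *Trib2* rose by 2.71 (adjusted p = 0.00793) from at most 4 counts to at most 20 counts in a library. *Cop1* had a log2 fold change of 0.32 and an adjusted p of 0.0514. The number of genes of this list that rose was 2 without *WT Phf6,RE9a* replicate 1 or *VC Phf6,RE9a* replicate 11, and the number that fell was 1 when *WT Phf6,RE9a* replicate 1 or *VC Phf6,RE9a* replicate 11, 12 or 13 was left out, and 1 with no filter on counts.

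Factors of neighbouring fates formed a list of 10 genes. Of these 3 rose and 4 fell, against 21.5% and 22.7% of all genes tested, with a median of -0.06. *Irf8*, the monocyte and dendritic cell factor that acts with PU.1, rose by 1.77 on the log2 scale (SE 0.34, adjusted p = 0.00467 in edgeR). *Irf4*, a PU.1 partner in B cells and dendritic cells, rose by 2.80 (SE 0.44, adjusted p = 0.0019), and *Klf1*, the erythroid factor, rose by 1.27 (SE 0.12, adjusted p = 0.000179). *Gata2*, of stem and mast cells, fell by 0.71 on the log2 scale (adjusted p = 0.00869), and *Mitf*, of mast cells, fell by 1.13 (adjusted p = 0.0021). *Egr1* and *Egr2*, early response factors that GFI1 opposes in monocytes, fell by 0.84 (adjusted p = 0.00731) and by 2.36 (adjusted p = 0.000492). *Gata1*, *Tal1* and *Klf4* did not pass.

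**Figure D3:**
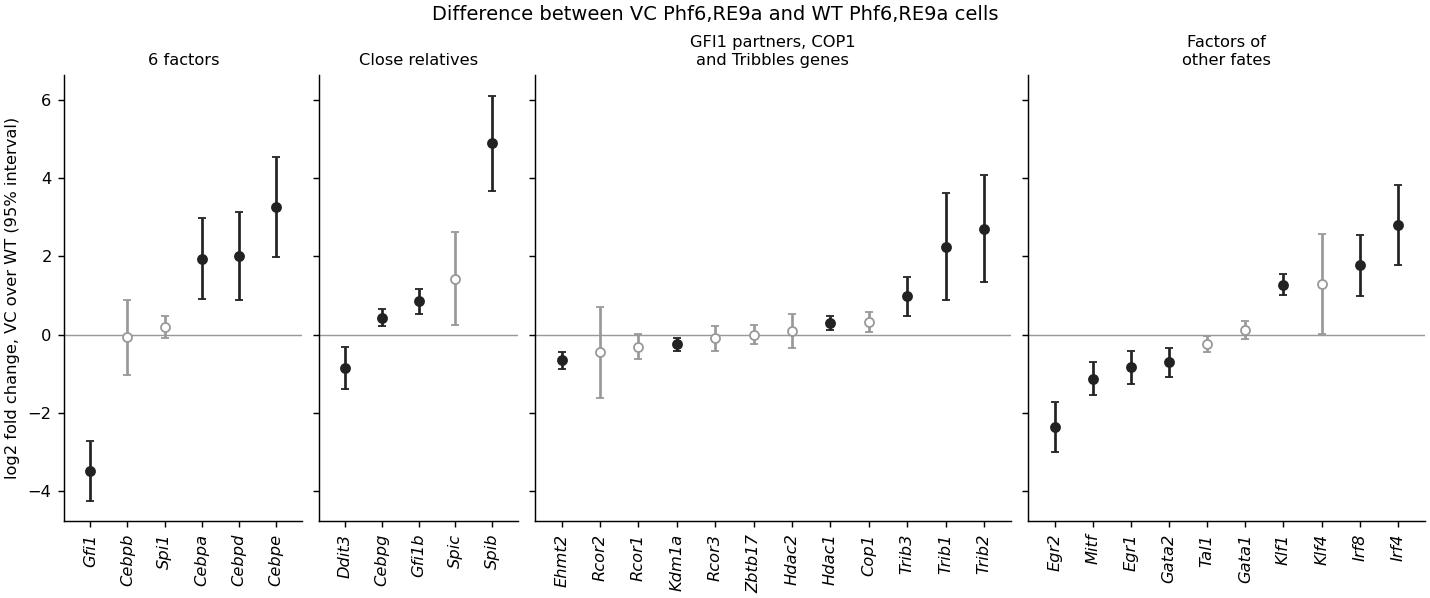
Log2 fold change in *VC Phf6,RE9a* relative to *WT Phf6,RE9a* cells with its 95% interval, from edgeR, for the 6 factors, 5 close relatives, 12 genes of GFI1 partners, COP1 and Tribbles proteins, and 10 factors of other fates, sorted within each panel. Filled points passed an adjusted p of 0.05 and open grey points did not. *Gfi1* lies at -3.48 and *Cebpe* at 3.26, and those 12 genes lie between -0.65 and 2.71.

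Genes that the 6 factors are known to act on were counted by list, beside the 21.5% of all genes tested that rose and the 22.7% that fell. All 8 receptor and primary granule genes, known to be bound or driven by C/EBPα and PU.1, rose, with a median log2 fold change of 2.30. *Csf3r*, the G-CSF receptor, had 43, 48 and 138 counts in *WT Phf6,RE9a* and 1197, 905 and 265 counts in *VC Phf6,RE9a* libraries, a log2 fold change of 3.26 (SE 0.62, adjusted p = 0.00441 in edgeR). *Elane*, neutrophil elastase, rose by 2.28 on the log2 scale (SE 0.47, adjusted p = 0.00603), and *Mpo*, myeloperoxidase, rose by 1.88 (SE 0.50, adjusted p = 0.018). Rises on the log2 scale were also called for *Lyz2*, lysozyme, at 2.66 (SE 0.54, adjusted p = 0.00584), for *Prtn3*, proteinase 3, at 2.33 (SE 0.42, adjusted p = 0.00371), and for *Fcnb*, a ficolin, at 2.61 (SE 0.52, adjusted p = 0.0056). With 1 library left out, 6 to 8 of the 8 genes passed.

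All 9 secondary and tertiary granule genes, known to depend on C/EBPε, rose as well, with a median of 2.88. *Camp*, the cathelicidin gene, rose by 3.39 on the log2 scale (SE 0.50, adjusted p = 0.00144 in edgeR). *Ltf*, lactoferrin, had 454, 274 and 1158 counts in *WT Phf6,RE9a* and 8772, 6133 and 2360 counts in *VC Phf6,RE9a* libraries, a log2 fold change of 3.10 (SE 0.60, adjusted p = 0.0048). Within both groups the order of the libraries was that of *Cebpe*, with *WT Phf6,RE9a* replicate 3 and *VC Phf6,RE9a* replicate 13 nearest to each other. *Cd177*, a neutrophil surface protein stored in granules, rose by 2.74 (SE 0.54, adjusted p = 0.00529). With 1 library left out, 8 or 9 of the 9 genes passed. The neutrophil markers, 2 of which are on these lists, moved with both lists, and their part in the results was not tested.

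Set against the granule genes, the result depended on the factor and on which granule genes were used. Per 1000 FPKM of the 9 secondary granule genes, *Cebpe* had 5.55, 2.49 and 4.73 FPKM in *WT Phf6,RE9a* and 5.47, 6.35 and 8.14 FPKM in *VC Phf6,RE9a* libraries, and the groups overlapped. *Cebpa* had 5.51, 3.82 and 4.14 FPKM in *WT Phf6,RE9a* and 2.21, 2.29 and 3.48 FPKM in *VC Phf6,RE9a* libraries on the same scale. Every *VC Phf6,RE9a* library was thus under every *WT Phf6,RE9a* library for *Cebpa*, whose level rose less than that of the granule genes.

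*Cebpd* had 3.36 to 6.20 FPKM in *WT Phf6,RE9a* and 2.33 to 2.84 FPKM in *VC Phf6,RE9a* libraries on that scale. *Spi1* went from 131 to 413 FPKM in *WT Phf6,RE9a* down to 28.1 to 90.3 FPKM in *VC Phf6,RE9a* libraries, and *Gfi1* from 42.5 to 201 FPKM down to 1.01 to 1.87 FPKM. Per 1000 FPKM of the 8 primary granule genes and receptors, *Cebpe* had 8.84, 4.77 and 8.53 FPKM in *WT Phf6,RE9a* and 12.7, 16.0 and 16.5 FPKM in *VC Phf6,RE9a* libraries, without overlap, unlike against the secondary granule genes. On this second scale *Cebpd* overlapped, at 6.05 to 11.8 FPKM and 5.30 to 6.62 FPKM. *Cebpa*, at 7.30 to 8.79 FPKM and 5.13 to 7.06 FPKM, *Spi1*, at 237 to 658 FPKM and 65.4 to 183 FPKM, and *Gfi1*, at 76.7 to 384 FPKM and 2.35 to 3.80 FPKM, were lower in every *VC Phf6,RE9a* library on both scales. Against the neutrophil markers, given above, *Cebpe* overlapped. These ratios are descriptions of 6 libraries and were not tested.

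**Figure D4:**
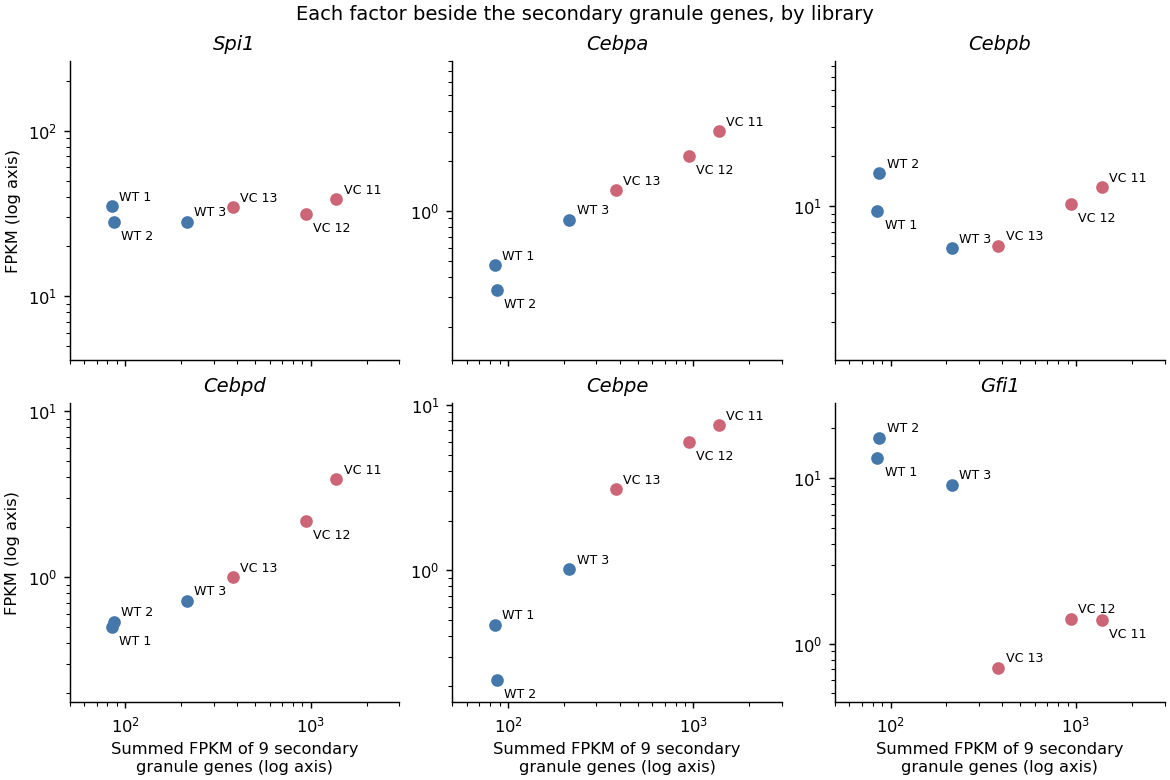
FPKM of each factor (vertical log axis, of the same span in every panel) against the summed FPKM of 9 secondary granule genes (horizontal log axis), with 1 point per library, blue for *WT Phf6,RE9a* and red for *VC Phf6,RE9a*. *Cebpa*, *Cebpd* and *Cebpe* climb from *WT Phf6,RE9a* replicates 1 and 2 through *WT Phf6,RE9a* replicate 3 and *VC Phf6,RE9a* replicate 13 to *VC Phf6,RE9a* replicates 12 and 11, *Spi1* shows no such climb, and *Gfi1* is high in the 3 *WT Phf6,RE9a* libraries and low in the 3 *VC Phf6,RE9a* libraries.

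Of 12 genes known as PU.1 targets, 11 could be tested. Of these 7 rose and 2 fell, against 21.5% and 22.7% of all genes tested, with a median of 0.87. Log2 fold changes of the tested genes ran from -0.90 to 2.37. *Csf2ra*, a chain of the GM-CSF receptor, rose by 0.87 on the log2 scale (SE 0.15, adjusted p = 0.00255 in edgeR). *Ncf4* and *Btk* fell by 0.90 (adjusted p = 0.00265) and by 0.41 (adjusted p = 0.00425), in cells in which *Spi1* itself did not pass. *Ncf4* encodes a subunit of the phagocyte oxidase and *Btk* a kinase of B cells and mast cells. The summed level of neutrophil markers rose and that of mast cell and basophil markers fell in the same libraries. Their part in the results of the PU.1 targets was not tested. *Msr1* had at most 19 counts in a library and was not tested. Without *WT Phf6,RE9a* replicate 1 or *VC Phf6,RE9a* replicate 11, 4 of these genes rose.

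Of 10 acute-phase and inflammatory genes known as targets of C/EBPβ and C/EBPδ, 8 could be tested. Of these 2 rose and 3 fell, against 21.5% and 22.7% of all genes tested, with a median of -0.35. *Il6*, a cytokine gene, had 522, 418 and 447 counts in *WT Phf6,RE9a* and 20, 18 and 5 counts in *VC Phf6,RE9a* libraries. *Tnf* fell by 4.39 on the log2 scale (SE 0.41, adjusted p = 0.000198 in edgeR), and *Ptgs2*, which encodes cyclooxygenase-2 and was named after its values were seen, fell by 2.75 (adjusted p = 0.00928). *Hp*, haptoglobin, which is also stored in neutrophil granules, rose by 2.36 on the log2 scale (SE 0.48, adjusted p = 0.00582). The other gene that rose, *G0s2*, a lipase inhibitor named after its values were seen, rose by 2.15 (adjusted p = 0.0203). The genes that fell did so in cells in which *Cebpd* rose and *Cebpb* did not pass. In the same libraries the summed level of mast cell and basophil markers fell and that of neutrophil markers rose. The part of these markers in the results of this list was not tested. *Il1b* had a log2 fold change of -0.74 and an adjusted p of 0.291. *Saa3* and *Csf3* had at most 11 counts in a library and were not tested. The number that rose was 1 when *WT Phf6,RE9a* replicate 2 or *VC Phf6,RE9a* replicate 11 or 12 was left out, and 1 where every library had to hold at least 10 counts.

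Of 7 genes known to be repressed by GFI1, 6 could be tested. Of these 4 fell, against 22.7% of all genes tested, and the other 2 did not pass, with a median of -2.47. *Cdkn1a*, the cell cycle inhibitor p21, had 15374, 9766 and 8795 counts in *WT Phf6,RE9a* and 2250, 1405 and 1279 counts in *VC Phf6,RE9a* libraries. It fell by 2.92 on the log2 scale (SE 0.30, adjusted p = 0.000281 in edgeR), in the libraries in which *Gfi1* was low. *Id2*, an inhibitor of basic helix-loop-helix factors, fell by 2.58 (SE 0.23, adjusted p = 0.000162), and *Egr2* is given above. The summed level of the mast cell and basophil markers also fell in these libraries. Its part in the results of this list was not tested.

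*Csf1*, the macrophage growth factor, was named after its values were seen and fell by 5.20 on the log2 scale (SE 0.66, adjusted p = 0.000695 in edgeR). *Id1* had a log2 fold change of 0.39 and an adjusted p of 0.0998. *Hoxa9* had at most 4 counts in a library and was not tested. When *WT Phf6,RE9a* replicate 3 was left out, 1 gene of the list rose.

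**Figure D5:**
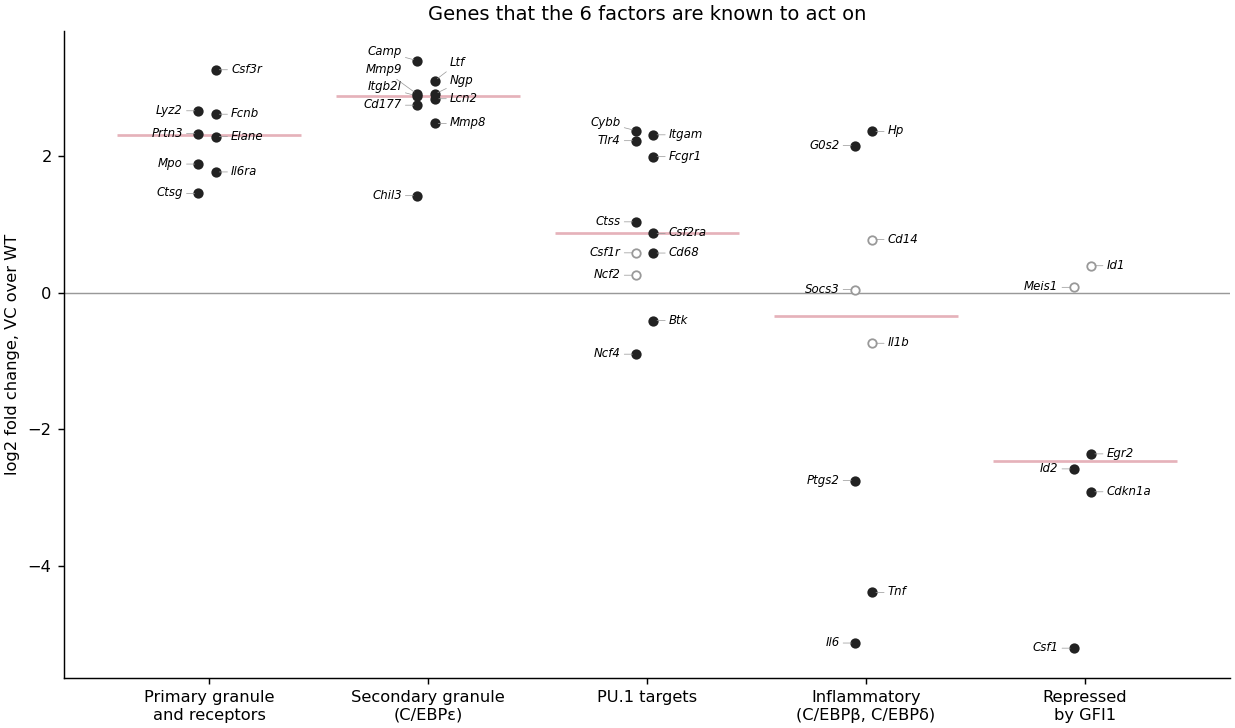
Log2 fold change in *VC Phf6,RE9a* relative to *WT Phf6,RE9a* cells for the tested genes of 5 lists of known target genes. Each point is a gene, filled where the adjusted p from edgeR was under 0.05 and open where it was not, and the red line is the median of the list. The medians are 2.30 for primary granule genes and receptors, 2.88 for secondary granule genes, 0.87 for PU.1 targets, -0.35 for inflammatory genes and -2.47 for genes repressed by GFI1.

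The genes whose profile over the 6 libraries was most like that of each factor were found as the protein coding genes, averaging 3 log2 CPM or more, at the smallest root mean square distance between centred log2 CPM profiles. For *Cebpe* these were *Ltf*, *S100a9* and *Ngp*, at distances of 0.207, 0.256 and 0.267, and all 3 encode granule or cytosolic proteins of neutrophils. *Cebpa* was closest to *Plbd1*, *Ckap4* and *Irf8*, at 0.206 to 0.242, and *Cebpd* to *Xdh*, *C3* and *Adam8*, at 0.170 to 0.229. *Gfi1* was closest to *Fuca2*, *Cerk* and *Creb3l1*, at 0.140 to 0.204. *Creb3l1*, a membrane-bound bZIP factor gene, had 6436, 8632 and 6400 counts in *WT Phf6,RE9a* and 650, 868 and 483 counts in *VC Phf6,RE9a* libraries, with replicate 2 highest in *WT Phf6,RE9a* and replicate 13 lowest in *VC Phf6,RE9a* cells, as for *Gfi1*. *Cebpb* was closest to *Selenop*, *Il15* and *Mxd1*, at 0.242 to 0.286, and *Spi1* to *1810032O08Rik*, *Pttg1* and *Ninj1*, at 0.028 to 0.054. With 6 libraries and 44.2% of genes called, many genes share such profiles, and the neighbours are a description only.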

How the data were processed

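RNA of GFP+ *WT Phf6,RE9a* and *VC Phf6,RE9a* leukemia cells was sequenced by the authors after an Illumina TruSeq preparation, with 3 libraries per group. Per Ensembl gene, the authors deposited raw read counts as whole numbers, and FPKM values that could be recomputed from those counts, the deposited gene length and DESeq2 size factors. The deposited table also holds the authors' DESeq2 comparison (log2 fold changes, p-values and a signal per group, the mean normalized count), which was not used. The submitters' processing notes name Bowtie 0.12.0 and the mouse build mm8, but 98.3% of the 54409 genes found in GENCODE M21 matched its start and end, and coordinates are therefore given on GRCm38. The counting tool and its use of strand are not given in the sources used here.

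In R 4.3.3, counts were filtered with filterByExpr, scaled by TMM and compared by the quasi-likelihood test of edgeR 4.0.16, with Benjamini-Hochberg adjustment over 14169 genes at 0.05. No covariate was used. Total counts were 15675358 to 16817994 per library. A count of 0 allows up to 3 counts, at most 0.191 CPM, and this limit covers counting error only. The intervals of fold changes come from the edgeR fit and include the spread between libraries. Within-library ratios were compared by an exact permutation test. The code was tested on simulated data. Alternatives were size factors (RLE), DESeq2 1.42.0, all genes without a filter, a minimum of 10 counts per library, limma 3.58.1 on log2(FPKM + 1) and log2(FPKM + 0.1), and each library left out. Of 2 rows with the symbol *Ddit3*, the row with 0 counts in every library was dropped. Promoter windows are from RefSeq. Figures were drawn with matplotlib 3.10.9.

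The members, the 8 lists of related genes and the 7 marker lists were chosen with earlier results of these data known. Genes named are the 6 members, *Phf6*, genes that overlap a member, every relative, partner and factor of another fate, in each other list of related genes the 3 with the highest FPKM, the 3 with the smallest p and those not tested, and the 3 nearest profiles of each member. Others are said to be named after their values were seen. Of the list of factors of other fates and of that of genes repressed by GFI1, 1 gene each is not reported here, and the counts and medians of these lists are without it.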

Additional observations from a re-analysis of the deposited data

How the results depend on the processing

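No paired analysis was possible because the replicate numbers 1 to 3 and 11 to 13 are not shared between the groups. The calls of *Cebpa*, *Cebpd* and *Gfi1* were kept in all 12 alternatives and that of *Cebpe* in the 11 that tested it. Log2 fold changes lay between 1.00 and 2.43 for *Cebpa*, 0.99 and 2.37 for *Cebpd*, 2.03 and 3.98 for *Cebpe* and -3.70 and -2.69 for *Gfi1*. *Spi1* stayed between 0.13 and 0.31 and did not pass in any. *Cebpb* ran from -0.38 to 0.38 with 1 library left out and was above 0 when *WT Phf6,RE9a* replicate 2 (0.38) or *VC Phf6,RE9a* replicate 13 (0.19) was left out, and did not pass in any. Over all genes, 2179 to 3132 rose and 2511 to 3338 fell with 1 library left out, and the ratios of factors were within -2.24 to -1.53 for *Spi1* to *Cebpa*, 1.23 to 1.64 for *Cebpe* to *Cebpa* and -4.76 to -4.04 for *Gfi1* to *Gfi1b*. With 1 library left out, 0 to 1 relatives fell, 2 to 4 genes of the GFI1 partner, COP1 and Tribbles list rose and 1 to 2 fell, 4 to 7 PU.1 targets rose, 1 to 2 inflammatory genes rose and 0 to 1 genes repressed by GFI1 rose. With no count filter 1 gene of the GFI1 partner, COP1 and Tribbles list fell. With at least 10 counts in every library 1 inflammatory gene rose. In the latter, fewer genes were tested, and elsewhere the cause was not tested. The other lists stayed within 1.5 times their counts. Depth limits *Cebpe* in *WT Phf6,RE9a* libraries, at 4 to 21 counts, and more so *Spib* at 2 to 5 and *Trib2* at 1 to 4 counts.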

Other observations

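The following order of libraries was noticed after the values were seen. *VC Phf6,RE9a* replicate 13 was the lowest *VC Phf6,RE9a* library for 5 of the 6 factors, against 35.1% of all genes tested, and *WT Phf6,RE9a* replicate 3 was the highest *WT Phf6,RE9a* library for 3 of the 6, against 33.7%. Both held at once for *Cebpa*, *Cebpd* and *Cebpe*, for all 8 primary granule genes and receptors, all 9 secondary granule genes and 5 of 6 neutrophil markers, against 13.1% of all genes tested, and for 4 of 11 tested PU.1 targets. *Gfi1* had its lowest values of each group in *WT Phf6,RE9a* replicate 3, with 485 counts, and *VC Phf6,RE9a* replicate 13, with 39 counts, so that within *WT Phf6,RE9a* cells its order was opposite to that of *Cebpe* and within *VC Phf6,RE9a* cells it was not. These orders are values of 6 libraries and carry no test.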
